A study of Homo sapiens with 4 samples.

Results

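The RNA of 10 genes that encode histone acetyltransferases and an associated coactivator was followed in cells labelled NB4, with and without GNE-987. The genes were chosen by name, as 9 enzymes that write the acetyl marks read by BET proteins and 1 coactivator, and were EP300, CREBBP, KAT2A, KAT2B, KAT5, KAT6A, KAT6B, KAT7, KAT8 and NCOA3. They are 10 of the 58735 genes in the deposited table, and each of the 10 matched 1 Ensembl identifier. NB4 is the name of a human cell line from acute promyelocytic leukemia. GNE-987 is a bifunctional degrader that brings BET proteins to a ubiquitin ligase. The 2 control libraries came from cells whose label gives no treatment, and the 2 GNE-987 libraries from cells given 25 nM for 1 day, a dose and time taken from the study's text. No label says whether replicates were separate cultures, so P values measure the spread between these libraries, which may be technical.

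Histone acetyltransferases move an acetyl group from acetyl-CoA to lysines of histone tails. EP300 and CREBBP, the paralogous p300 and CBP proteins, acetylate histones at enhancers and promoters. KAT2A and KAT2B, of the GNAT family, work inside the large SAGA and ATAC complexes, and the MYST enzymes KAT5, KAT6A, KAT6B, KAT7 and KAT8 each work with their own scaffold proteins. NCOA3 is a p160 coactivator, a family that links nuclear receptors to p300 and CBP. BET proteins bind the acetylated lysines through their bromodomains.

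The control libraries lacked defining markers of the labelled line. Levels are given in FPKM, fragment counts scaled for exon length and for library. A comparison of levels between different genes therefore rests on the exon lengths used. The granulocytic genes MPO, ELANE and CTSG were at or near 0 in the control libraries, with MPO at 0.0246 and 0 FPKM and both of the others listed at 0. The erythroid factor GATA1 was at 124 and 122 FPKM in control and at 15.1 and 12.5 FPKM with GNE-987. Of 8 granulocytic markers 2 were above 1 FPKM in both control libraries, against 10 of 10 erythroid markers. With GNE-987 the summed level of the granulocytic markers went from 5.35 and 5.44 FPKM to 34.0 and 34.0 FPKM, and that of the erythroid markers from 444 and 422 FPKM to 790 and 676 FPKM. The summed level of 4 megakaryocytic markers went from 0.485 and 0.472 FPKM to 3.84 and 5.22 FPKM, of 5 lymphoid markers from 17.2 and 16.2 FPKM to 44.2 and 43.6 FPKM, and of 3 fibroblast markers from 0.0127 and 0.0219 FPKM to 1.27 and 1.54 FPKM. The part of these shifts in the results given here was not tested. In bulk RNA, fewer cells of a type and less RNA per cell cannot be told apart.

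Few of the acetyltransferase genes changed by a large factor. Of the 10 genes 9 averaged 0.5 FPKM or more and were tested, and 1 of these, KAT5, passed both thresholds of the study. They ask for an unadjusted P value under 0.05 together with a change of more than 2-fold in either direction. The study applied them to results of DESeq2, whereas here they were applied to limma on log2(FPKM + 0.1). A gene that had an adjusted P value under 0.05 with a smaller change is still described as risen or fallen. Over all 16668 tested genes 58.5% passed, 33.6% as higher and 24.9% as lower with GNE-987, and over protein-coding genes 24.0% were higher and 31.7% lower. NCOA3 had a positive log2 fold change and the other 8 tested genes a negative one. Without a fold threshold, 6 of the 9 stayed under 0.05 after Benjamini-Hochberg adjustment of the limma P values, against 77.6% of all tested genes and 83.1% of protein-coding ones. In all 10 genes the GNE-987 libraries did not overlap the control libraries, which also held for 89.1% of all tested genes. The median log2 fold change of the 9 genes was -0.37, beside 0.17 over all tested genes and -0.29 over protein-coding genes.

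Where 0 lies on this scale depends on how the libraries were scaled. The deposited values have the same median-ratio size factor, 1.01, in all 4 libraries, so they are centred on the median of the 17391 genes above 0 in every library. Scaling to GAPDH, whose deposited level was 398 and 432 FPKM in control and 1501 and 1499 FPKM with GNE-987, shifted the overall median log2 fold change by -1.77. Rescaling each library to a sum of 1000000 FPKM moved it by -1.44, scaling to the total of recovered reads by -0.73, and quantile normalization by -0.42. The direction of NCOA3 flipped with scaling to GAPDH, to -0.92, and with the fixed sum, to -0.55. Set against that overall median, NCOA3 lay between 0.67 and 1.07, KAT5 between -1.24 and -1.09 and CREBBP between -1.19 and -0.80 over these scalings. Except for quantile normalization, each scaling multiplies a library by 1 factor. Subtracting the median removes that factor apart from the pseudocount, so these ranges are no test of the scaling. Quantile normalization gave 1.07 for NCOA3, -1.09 for KAT5 and -0.80 for CREBBP. With scaling to the total of reads 5 of the 9 genes passed as lower, and with GAPDH or the fixed sum 8 of 9 did.

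**Figure D1:**
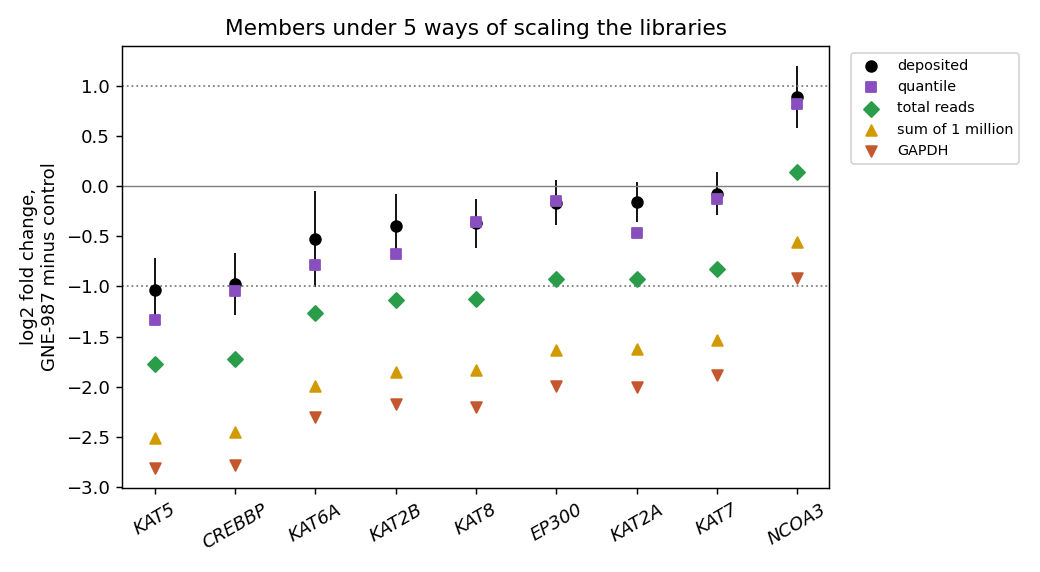
Log2 fold change (GNE-987 minus control, vertical axis) of the 9 tested members under the deposited scaling and 4 others, with 95% limma intervals for the deposited values and dotted lines at the fold threshold. KAT5 and CREBBP are lowest and NCOA3 highest under each of the 5, while the level of 0 moves, and NCOA3 falls below 0 with GAPDH and with the fixed sum.

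The sequences before the start sites of 4 genes are shown because these genes carry the main contrasts, CREBBP and KAT5 with the lowest fold changes, NCOA3 with the highest, and EP300 as the paralog of CREBBP that did not pass the test. Promoter sequences came from RefSeq on GRCh38.p14 and covered 8 of the 10 members, with KAT6A and KAT8 not in the table. The 250 bases before each start were searched on both strands for 7 motifs. These were the E-box, written CACGTG, the ETS core, written CCGGAA, the GC box, written GGGCGG, the YY1 motif, written AAGATGGC, the CCAAT box by its name, the TATA motif, written TATAAA, and the GATA motif, written AGATAA. The RefSeq window of KAT5 lies inside annotated exons, so for KAT5 the 250 bases before the GENCODE gene start were read from hg38, where 0 annotated exons lie. The stretch of EP300 stops 80 bases before its start, where another annotated exon lies. Capitals mark motif matches.
CREBBP (chr16:3880714-3880963, minus strand): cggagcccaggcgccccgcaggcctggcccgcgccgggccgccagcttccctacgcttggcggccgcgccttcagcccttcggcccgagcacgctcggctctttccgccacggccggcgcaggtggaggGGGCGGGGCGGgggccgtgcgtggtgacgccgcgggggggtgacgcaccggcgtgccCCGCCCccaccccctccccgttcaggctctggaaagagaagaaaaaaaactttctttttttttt
EP300 (chr22:41092342-41092512, plus strand): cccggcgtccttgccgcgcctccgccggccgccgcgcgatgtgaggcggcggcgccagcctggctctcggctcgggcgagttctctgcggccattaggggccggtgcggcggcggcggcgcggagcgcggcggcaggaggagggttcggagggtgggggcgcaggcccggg
KAT5 (chr11:65711746-65711995, plus strand): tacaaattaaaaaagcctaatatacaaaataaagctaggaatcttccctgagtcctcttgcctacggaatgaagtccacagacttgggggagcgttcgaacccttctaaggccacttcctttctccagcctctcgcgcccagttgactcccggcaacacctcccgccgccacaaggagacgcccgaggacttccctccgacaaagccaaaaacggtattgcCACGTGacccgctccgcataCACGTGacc
NCOA3 (chr20:47501637-47501886, plus strand): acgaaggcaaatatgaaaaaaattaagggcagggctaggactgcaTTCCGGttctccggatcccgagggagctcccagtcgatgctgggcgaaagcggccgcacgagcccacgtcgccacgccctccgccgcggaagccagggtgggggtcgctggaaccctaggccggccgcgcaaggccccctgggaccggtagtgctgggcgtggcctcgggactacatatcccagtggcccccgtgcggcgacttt
In the stretches shown, CREBBP holds 3 GC boxes, 2 of them overlapping, and KAT5 holds 2 E-boxes. NCOA3 holds 1 ETS core on the minus strand, and EP300 holds none of the 7 motifs. The RefSeq window of KAT5, not shown, holds 1 E-box and 2 ETS cores, so its matches depend on the window. Another RefSeq window of CREBBP, also not shown, holds 4 GC boxes. The shares that follow are of RefSeq windows, and the KAT5 stretch shown is not one of these. Over 35116 RefSeq windows of 250 bases, 42.6% hold a GC box, 14.5% an ETS core, 6.34% an E-box, 32.0% a CCAAT box, 10.7% a TATA motif, 9.17% a GATA motif and 1.36% a YY1 motif. A match is a description of the letters, not of a bound site.

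CREBBP fell and EP300 did not pass the test, and the ratio between these paralogs differed between the groups. CREBBP (chr16:3725054-3880713, minus strand) measured 5.79 and 6.71 FPKM in control and 3.02 and 3.21 FPKM with GNE-987. The log2 fold change of CREBBP on the log2(FPKM + 0.1) scale was -0.98 (95% interval -1.29 to -0.67, adjusted P = 0.00235 from limma). On that scale this lies just outside the fold threshold, and KAT5 at -1.04 lies just inside. The ratio of the mean FPKM of CREBBP, GNE-987 over control, was 0.499, just under a cut at 0.5. Without GNE-987 replicate 1, the adjusted P value of CREBBP was 0.0520. EP300 (chr22:41092592-41180077, plus strand) measured 7.82 and 8.63 FPKM in control and 7.21 and 7.41 FPKM with GNE-987, a log2 fold change of -0.17 (95% interval -0.39 to 0.06, adjusted P = 0.124). The interval of EP300 includes values down to -0.39, so a missed threshold does not show an equal level. The ratio of EP300 to CREBBP within a library, which a single scaling factor per library cannot change, went from 1.35 and 1.29 to 2.39 and 2.31, a change of 1.78-fold. With 2 libraries against 2, the smallest P value of an exact two-sided permutation test is 0.333, so no test was made of single ratios.

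NCOA3 rose in the deposited values and its p160 relatives fell. NCOA3 (chr20:47501887-47656877, plus strand), a coactivator also known from its amplification in breast cancer, measured 2.89 and 3.06 FPKM in control and 5.21 and 6.001 FPKM with GNE-987. Both GNE-987 libraries stood above both control libraries. The log2 fold change was 0.89 (95% interval 0.58 to 1.20, adjusted P = 0.00297 from limma), under the fold threshold of 2, and the adjusted P value stayed between 0.0229 and 0.0327 with each library left out. The paralog NCOA1 fell from 6.09 and 6.58 FPKM to 2.40 and 2.38 FPKM, a log2 fold change of -1.37 (adjusted P = 0.000573). The paralog NCOA2 fell from 3.57 and 3.82 FPKM to 1.05 and 0.938 FPKM, a log2 fold change of -1.80 (adjusted P = 0.000723). In control cells NCOA3 was the lowest of the p160 genes, and with GNE-987 it was the highest. The ratio of NCOA3 to NCOA1 went from 0.474 and 0.465 to 2.17 and 2.53, and that of NCOA3 to NCOA2 from 0.811 and 0.799 to 4.96 and 6.40. NCOA3 shares 247 exon bases (2.93% of its exon length) with SULF2 on the opposite strand, which had 0.170 FPKM or less in each library. The choice to name NCOA1 and NCOA2 was made with their values known.

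**Figure D2:**
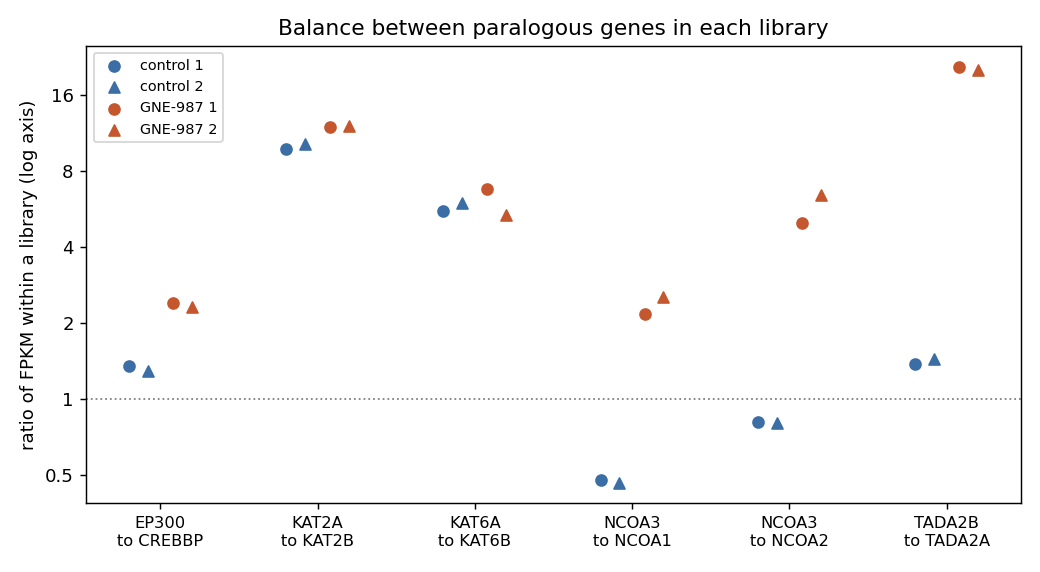
Ratio of the FPKM values of paralogous genes within each of the 4 libraries, on a log axis, with control in blue and GNE-987 in orange. NCOA3 passes from below to above NCOA1 and NCOA2, EP300 to CREBBP moves from about 1.32 to 2.35 on average, and KAT6A to KAT6B overlaps between the groups.

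KAT5, the catalytic subunit of the TIP60 complex, which acetylates histones H4 and H2A and takes part in DNA damage signalling, was the member that passed both thresholds. It lies at chr11:65711996-65719604 on the plus strand and measured 3.75 and 4.28 FPKM in control and 1.89 and 1.91 FPKM with GNE-987. At the GENCODE exon length of 3732 bases these values are whole read counts, 322 and 353 reads against 59 and 63. The log2 fold change was -1.04 (95% interval -1.35 to -0.72, adjusted P = 0.00219 from limma). Without control replicate 2 it was -0.94 and KAT5 did not pass, nor did it when the null hypothesis was a 2-fold change. RNASEH2C, a ribonuclease subunit gene on the opposite strand, shares 1439 exon bases with KAT5, or 38.6% of the exon length of KAT5, and went from 12.7 and 11.8 FPKM to 21.9 and 21.0 FPKM. Whether the counting used strand is not stated, so the reads of these 2 genes may not be fully separated.

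The other MYST genes had log2 fold changes nearer to 0 than KAT5. KAT7 (chr17:49788624-49835026), the HBO1 enzyme linked to replication origins, measured 4.44 and 4.33 FPKM in control and 4.19 and 4.11 FPKM with GNE-987, a log2 fold change of -0.08 (95% interval -0.29 to 0.14, adjusted P = 0.397). KAT8 (chr16:31114489-31131393), the MOF enzyme that acetylates histone H4, fell from 8.53 and 8.41 FPKM to 6.93 and 6.14 FPKM, a log2 fold change of -0.37 (adjusted P = 0.0195). Without control replicate 1 or control replicate 2 its adjusted P value was 0.103 or 0.0943. KAT6A (chr8:41929479-42051994), the MOZ enzyme fused to partner genes in some leukemias, measured 2.90 and 3.46 FPKM in control and 2.42 and 1.94 FPKM with GNE-987. Its log2 fold change of -0.53 had an adjusted P value of 0.0490, which was between 0.102 and 0.235 with each library left out. The ratio of KAT7 to KAT5 went from 1.19 and 1.01 to 2.22 and 2.15, and that of KAT8 to KAT5 from 2.28 and 1.97 to 3.66 and 3.21. Both ratios divide by KAT5 and so carry its fall, and like the other ratios they were not planned. The groups did not overlap in either ratio, which for single genes held for 89.1% of all tested genes.

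KAT6B (chr10:74824927-75032624), the MORF enzyme and paralog of KAT6A, was the member left out by the filter. It measured 0.525 and 0.577 FPKM in control and 0.357 and 0.363 FPKM with GNE-987. Its annotated exons add up to 32495 bases, against 3732 for KAT5. At that length its values are whole reads, 393 and 415 in control and 97 and 104 with GNE-987, which is more reads than KAT5 had. In a fit without the filter the log2 fold change was -0.50 (95% interval -1.14 to 0.13, adjusted P = 0.150). The ratio of KAT6A to KAT6B went from 5.52 and 5.99 to 6.78 and 5.35, and the groups overlap.

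KAT2A, known as GCN5, was the most abundant of the 10 in every library and KAT2B, known as PCAF, was among the least. KAT2A (chr17:42113111-42121367, minus strand) measured 28.8 and 29.4 FPKM in control and 27.5 and 24.7 FPKM with GNE-987, a log2 fold change of -0.16 (95% interval -0.35 to 0.04, adjusted P = 0.112). Without GNE-987 replicate 1 its adjusted P value was 0.0345. It held 42.1% and 41.0% of the summed FPKM of the 10 genes in control and 45.1% and 42.7% with GNE-987. KAT2B (chr3:20040446-20154404, plus strand) fell from 2.94 and 2.86 FPKM to 2.31 and 2.05 FPKM, a log2 fold change of -0.40 (adjusted P = 0.0351), and its adjusted P value was between 0.0534 and 0.178 with each library left out. The ratio of KAT2A to KAT2B went from 9.79 and 10.3 to 11.9 and 12.1.

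The order of the 10 levels changed at a few places. By mean FPKM in control it ran KAT2A, KAT8, EP300, CREBBP, KAT7, KAT5, KAT6A, NCOA3, KAT2B and KAT6B. Such an order depends on the exon length used for FPKM, which in GENCODE lay between 3732 bases for KAT5 and 32495 for KAT6B. The libraries of KAT8 and EP300, of KAT6A and NCOA3, and of NCOA3 and KAT2B overlapped, so these neighbours could not be ordered. With GNE-987 it ran KAT2A, EP300, KAT8, NCOA3, KAT7, CREBBP, KAT2B, KAT6A, KAT5 and KAT6B, where the libraries of KAT2B and KAT6A overlapped. NCOA3 went from rank 8 to rank 4, KAT5 from rank 6 to rank 9, and CREBBP from rank 4 to rank 6.

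**Figure D3:**
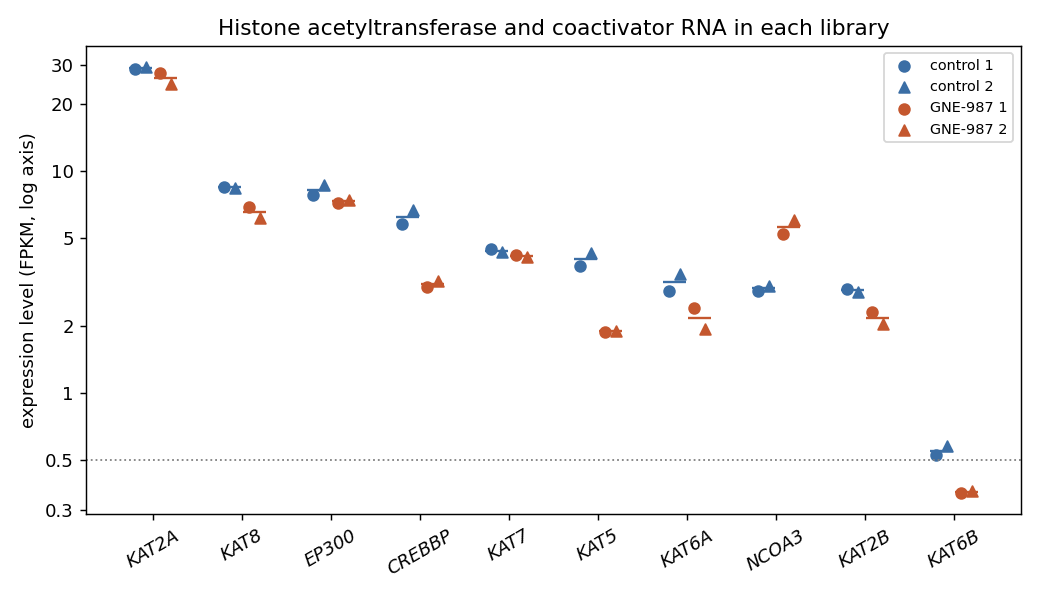
FPKM of the 10 members in each library on a log axis, ordered by the control mean, with circles for replicate 1, triangles for replicate 2 and short lines for group means. The dotted line is the filter at 0.5 FPKM. NCOA3 stands higher with GNE-987, KAT5 and CREBBP stand lowest relative to control, and KAT6B lies around the filter.

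The genes of the proteins that build complexes around these enzymes were examined next. The 8 lists of partners held 79 genes, 76 of them tested, of which 30 were lower and 8 higher at the thresholds, with a median log2 fold change of -0.62. All 38 kept an adjusted P value under 0.05. The same background holds for these counts, 24.9% lower and 33.6% higher over all tested genes and 31.7% and 24.0% over protein-coding ones. With scaling to GAPDH 66 partners were lower and 0 higher, and with the total of reads 45 were lower and 0 higher.

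The genes of the TIP60 complex of KAT5 were mostly lower. Of its 17 partner genes 12 were lower and 0 higher, or 70.6% lower, with a median log2 fold change of -1.37. With each library left out, 12 or 13 were lower. YEATS4, a reader of acetylated histone H3, measured 14.2 and 12.8 FPKM in control and 2.72 and 1.26 FPKM with GNE-987, a log2 fold change of -2.80 (SE 0.39, adjusted P = 0.00448). MRGBP, a small subunit that binds the MRG proteins, fell from 14.6 and 13.3 FPKM to 2.24 and 1.91 FPKM (log2 fold change -2.70, SE 0.11), and 16.5% of its exon length overlaps OGFR-AS1. The scaffolds EP400 and TRRAP fell by 1.29 and 1.31 on the log2 scale, and the backbone genes EPC1 and EPC2 fell by 1.79 and 1.72. RUVBL1 and RUVBL2, ATPases shared with other complexes, had log2 fold changes of -0.58 and 0.17, and MBTD1 had 0.14. EP400, EPC1, EPC2, RUVBL1, RUVBL2 and MBTD1 were picked for naming with their values known.

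In the SAGA list, which goes with KAT2A and KAT2B, genes passed in both directions under the deposited scaling. Of 18 genes 17 were tested, 4 were higher and 5 lower, and ATXN7 was too low to test. These shares, 23.5% higher and 29.4% lower, were near the 24.0% and 31.7% of protein-coding genes. The median log2 fold change was 0.30. With scaling to the total of reads 0 were higher and 7 lower, and with GAPDH 0 were higher and 13 lower. TAF10, among the higher genes, shares 40.8% of its exon length with ILK on the opposite strand. SUPT7L, among the lower ones, shares 13.2% with GPN1 on the opposite strand. The reads of these overlapping genes may not be fully separated. TADA2B, the adaptor that distinguishes SAGA from ATAC, rose from 4.89 and 5.04 FPKM to 14.9 and 16.5 FPKM (log2 fold change 1.64, SE 0.08, adjusted P = 0.000340). TADA2A, the ATAC adaptor, fell from 3.56 and 3.52 FPKM to 0.719 and 0.822 FPKM (log2 fold change -2.07, SE 0.13). The ratio of TADA2B to TADA2A thus went from 1.37 and 1.43 to 20.7 and 20.1 within libraries. TADA3, shared by both complexes, measured 22.8 and 21.9 FPKM in control and 22.6 and 22.2 FPKM with GNE-987, a log2 fold change of 0.0044 (SE 0.05), and its groups overlapped. TAF9, a subunit shared with the basal factor TFIID, rose from 38.5 and 36.1 FPKM to 102 and 103 FPKM. ATXN7L3, of the deubiquitinase module of SAGA, fell from 17.0 and 17.5 FPKM to 6.93 and 6.95 FPKM. TADA1, a SAGA core subunit, fell by 2.87 on the log2 scale (SE 0.34), the largest fall among the 76 tested partner genes. TADA1, TADA2A, TADA3, TAF10 and SUPT7L were picked for naming with their values known.

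Of 11 ATAC partners 3 were lower and 1 higher, with a median log2 fold change of -0.67. Without GNE-987 replicate 1 the median was -0.41, and 5 genes were lower with quantile normalization and 7 with the total of reads. WDR5, an adaptor found in ATAC, in the NSL complex and in histone methyltransferase complexes, fell from 25.5 and 23.5 FPKM to 8.87 and 9.83 FPKM, and 11.2% of its exon length overlaps WDR5-DT. POLE4, a histone-fold protein, rose from 15.0 and 14.6 FPKM to 35.7 and 36.8 FPKM.

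The MSL and NSL partners of KAT8 were mostly lower, 6 of 11 against 1 higher, with a median of -1.20, while KAT8 itself had a log2 fold change of -0.37. Without control replicate 1 the count of higher genes was 0. HCFC1, a cell cycle cofactor found in the NSL complex, fell from 44.6 and 44.3 FPKM to 8.82 and 8.23 FPKM (log2 fold change -2.37, SE 0.06, adjusted P = 0.000135). MSL1, the scaffold of the MSL complex, fell from 16.6 and 17.1 FPKM to 2.93 and 4.01 FPKM (log2 fold change -2.27, SE 0.17). MSL2, its ubiquitin ligase partner, was picked with its values known and had a log2 fold change of 0.49.

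Among 9 partners of KAT6A, KAT6B and KAT7, 2 were lower and 1 higher, with a median log2 fold change of -0.17. The sign of this median rested on single libraries, since it was -0.41 without GNE-987 replicate 1 and 0.01 without GNE-987 replicate 2, and 1 gene was lower without control replicate 2 or without GNE-987 replicate 2. With quantile normalization it was -0.63. JADE2, a scaffold of the KAT7 complex, rose from 4.34 and 4.74 FPKM to 12.6 and 13.6 FPKM (log2 fold change 1.51, SE 0.08). Its paralogs JADE1 and JADE3, picked with their values known, had log2 fold changes of -0.84 and -1.02. MEAF6, a subunit shared with TIP60, fell from 13.7 and 14.8 FPKM to 4.32 and 4.78 FPKM. The scaffolds BRPF1 and BRD1, also picked in that way, had 0.34 and -0.14.

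Coactivators around p300 and CBP, other acetyltransferases and the supply of acetyl-CoA completed the lists. Of 7 coactivator genes 5 were tested, 3 were lower and 0 higher, and CITED1 and CITED4 were too low to test. The arginine methyltransferase gene CARM1, which shares 20.2% of its exon length with YIPF2 on the opposite strand, had a log2 fold change of -0.19 and the p300 binding protein gene CITED2 one of 0.50, both picked with their values known. Of 7 further acetyltransferase genes 2 were lower and 0 higher, and 1 was higher without control replicate 2 or without GNE-987 replicate 1. NAA40, which acetylates the amino ends of histones H4 and H2A, fell from 8.68 and 8.29 FPKM to 2.11 and 2.11 FPKM (log2 fold change -1.96, SE 0.08), and ELP3, of the Elongator complex, fell from 8.94 and 9.52 FPKM to 2.33 and 2.71 FPKM. Of the 4 acetyl-CoA genes, the mitochondrial citrate carrier gene SLC25A1 rose from 163 and 145 FPKM to 322 and 322 FPKM (log2 fold change 1.06, SE 0.07), and with quantile normalization it was at -0.38. Without control replicate 2 SLC25A1 did not pass the fold threshold, with a log2 fold change of 0.98. The ATP citrate lyase gene ACLY, picked with its values known, measured 79.7 and 84.5 FPKM in control and 78.6 and 78.6 FPKM with GNE-987. With scaling to GAPDH the log2 fold changes of TADA2B, TAF9, POLE4, JADE2 and SLC25A1 were below 0.

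**Figure D4:**
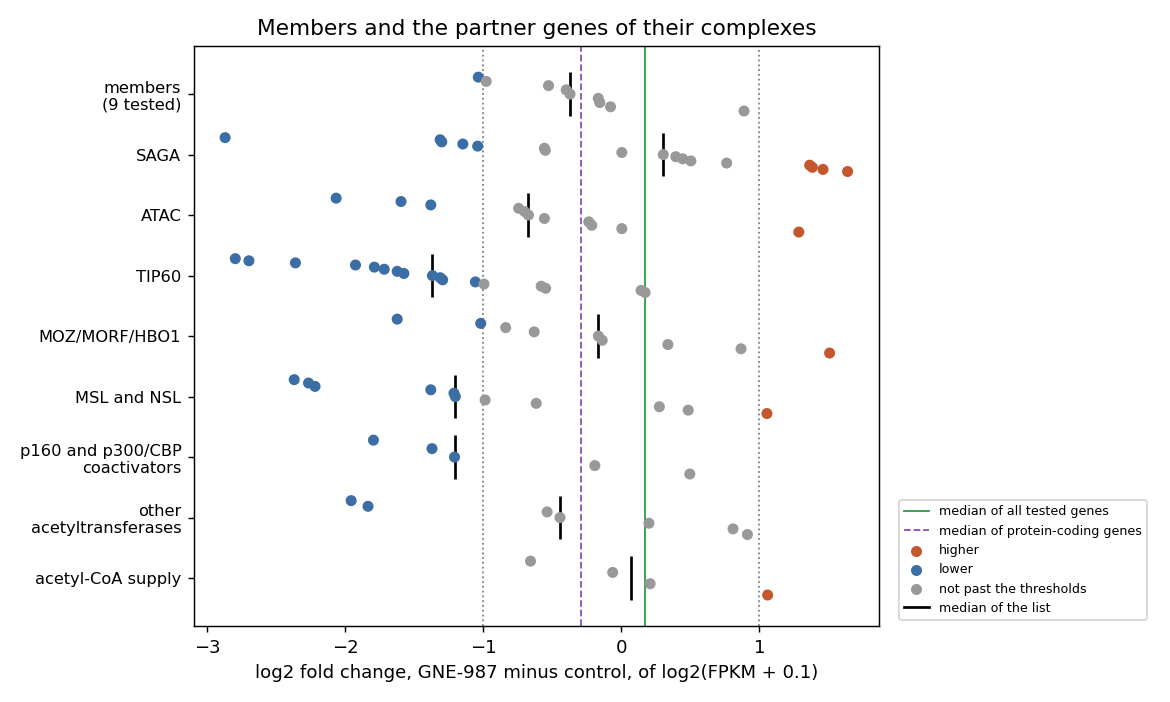
Log2 fold change (GNE-987 minus control, horizontal axis) of the tested members and of the tested genes in each partner list, with black bars for list medians and dotted lines at the fold threshold. The TIP60, MSL and NSL, and coactivator lists have medians of -1.37, -1.20 and -1.21, and the members have -0.37.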

How the data were processed

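RNA-seq was carried out by the authors on 4 libraries. They filtered the reads, mapped them with HISAT (HISAT2 2.0.5 and hg38 per the labels) and deposited FPKM values per gene. The counting program and annotation are not given in the sources used here. The file names no unit, and FPKM was inferred from the values and the study's text. Names, positions and exon lengths came from GENCODE release 44 on GRCh38 (99.1% of identifiers matched). Recovered reads come from FPKM steps at these lengths, taking values within 0.01 of an integer as whole, which gave 19347286 and 19142227 reads on genes in control and 12238111 and 12740693 with GNE-987. Between 46.6% and 48.6% of genes above 0 came out whole in a library, and reads are quoted only for members whole in all 4. The GNE-987 libraries are shallower and their low values less precise. The number of columns of the table left unused was 0.

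Values were tested across all genes as log2(FPKM + 0.1) with limma 3.58.1 in R 4.3.3, with an intensity trend and no replicate block, leaving out genes that averaged under 0.5 FPKM. Fold changes on this scale understate the change of low genes. Adjusted P values are over all tested genes. The steps were tested on simulated data of 16668 genes, 200 of them changed. At the thresholds 196 of the 200 were recovered, and 103 unchanged genes were called falsely. These counts were not split by size of change, so recovery near the fold threshold, where KAT5 and CREBBP lie, was not tested. A share of changed genes as large as the 58.5% that passed here was not tested either.

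The members and lists were chosen with earlier results of these data known. All members are named, and of each partner list up to 2 rises and 2 falls with an adjusted P value under 0.05 and a mean of at least 5 FPKM. The labels give no batch, so a batch that followed the groups cannot be told apart from treatment. Alternatives were other pseudocounts, filters and scalings, protein-coding genes only, calls by adjusted P value, a null hypothesis of a 2-fold change, the replicate block and leaving out each library, which for the ratios was chosen after the data were seen.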

Additional observations from a re-analysis of the deposited data

How the results depend on the processing

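The count of members past the thresholds was 1. It was 0 with a pseudocount of 1 and under a null hypothesis of a 2-fold change, 2 with quantile normalization, 5 with scaling to total reads and 8 with scaling to GAPDH or with rescaling to a sum of 1000000 FPKM. With each library left out it was between 0 and 2: KAT5 did not pass without control replicate 2, and CREBBP passed as well without control replicate 1 and without GNE-987 replicate 2. A lone library is then assumed to vary like the other group.

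The members' median log2 fold change was -0.30 with a pseudocount of 1, -0.47 with quantile normalization, -1.13 with the total of reads, -1.84 with the fixed sum, -2.17 with GAPDH, and between -0.46 and -0.29 with a library left out. Partner genes past the thresholds numbered 66 with GAPDH and 61 with the fixed sum, all lower, and 37 to 38 with a library left out. All tested genes past the thresholds numbered 6147 with protein-coding genes only, since fewer genes were tested, and 9006 to 9172 with a library left out. Their split of 5602 higher and 4148 lower became 4235 and 5464 with quantile normalization, 4190 and 6626 with the total of reads, 3307 and 8751 with the fixed sum, and 3031 and 9738 with GAPDH.

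With GAPDH the log2 fold change was -0.92 for NCOA3, -0.19 for TADA2B, -0.39 for TAF9, -0.56 for POLE4, -0.32 for JADE2 and -0.79 for SLC25A1. With the fixed sum it was -0.55 for NCOA3, -0.0077 for TAF9, -0.18 for POLE4 and -0.41 for SLC25A1, and with quantile normalization it was -0.38 for SLC25A1. The log2 ratio of KAT6A to KAT6B differed between groups by -0.10 to 0.24 with a library left out, negative without GNE-987 replicate 1, against 0.07 with all 4.

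In the fit that took replicate number as a block, 9853 of all tested genes, 1 member and 38 partner genes passed, and the members' median stayed at -0.37. The adjusted P values of KAT2B and KAT6A became 0.0665 and 0.0810. The deviations of same-numbered libraries had a correlation of 0.00537 across genes. This single value cannot show whether these libraries were paired, and no label says so. The GNE-987 libraries are the shallower pair, and the KAT5 level there rests on 59 and 63 reads.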
